A study of Mus musculus with 6 samples.

Results

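RNA was measured in RAW264.7 cells, a mouse macrophage line, and the 10 genes described here encode subunits of the integrins of leukocytes: Itgal, Itgam, Itgax, Itga4, Itga5 and Itgav for alpha chains, and Itgb1, Itgb2, Itgb3 and Itgb5 for beta chains. They were taken by symbol from the 24062 genes of the count tables, and all 10 were listed. There were 6 libraries, 1 for each condition. M0 cells received no polarizing agent, M1 cells received LPS at 100 ng/mL with IFN-γ at 20 ng/mL, and M2 cells received IL-4 at 20 ng/mL, both for 24 h. RM0, RM1 and RM2 were the same 3 states given 10 Gy of gamma rays from a cesium source and kept for another 24 h. Whether M0, M1 and M2 were also kept for this added 24 h was not stated in the sources used here. If they were not, irradiation and time in culture cannot be told apart. The labels name bone marrow as the tissue while the cells are an established line grown in serum. Each library was made from RNA pooled from wells, so there were no replicate libraries, and the difference between 2 libraries had no replicate check.

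An integrin is a heterodimer of 1 alpha and 1 beta chain that spans the plasma membrane and binds matrix proteins or receptors of other cells. The beta 2 chain (Itgb2, CD18) pairs with alpha L (Itgal, LFA-1), alpha M (Itgam, CD11b, complement receptor 3) and alpha X (Itgax, CD11c) on leukocytes, the beta 1 chain pairs with alpha 4 (VLA-4, which binds VCAM-1 and fibronectin), alpha 5 (the fibronectin receptor) and alpha v, and alpha v also pairs with beta 3 and beta 5 to bind RGD-containing ligands such as vitronectin and osteopontin. Talin and kindlin switch these receptors to the binding state from inside the cell, and Src and Syk family kinases signal below them.

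Total counts per library ranged from 17894937 to 18870516. Of the macrophage markers, Csf1r had 4855 to 14190 counts and Cd68 had 12059 to 15298, whereas Mertk had 3 to 8. The 6 lymphocyte markers summed to 1 to 5 counts and the 6 dendritic cell markers to 18 to 62, with Clec9a and Cd209a at 0 in every library. In 5 of the 10 genes the annotation overlaps or repeats elsewhere: 68.7% of the exon bases of Itgam lie in the same-strand gene model Gm49368, which has no row in the tables, 8.04% of those of Itga4 and 5.9% of those of Itgav lie under a gene on the opposite strand, and 3.7% of Itgax and 7.24% of Itgb5 is repeated in another gene. The strand setting of the counting was not given in the sources used here. Cerkl, which overlaps Itga4, had 8 to 39 counts, and Itgad, which shares sequence with Itgax, had 0 or 1.

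Levels are counts scaled to a common library size (CPM after TMM scaling), divided by the transcript length in kb. On this per-length scale the order of the first 3 genes was the same in every library: Itgam, Itgb2, Itga5. Itgam (NM_008401, chr7:128062640-128118491, plus strand, mm10) was at 276 to 358, Itgb2 (NM_008404, chr10:77530348-77565674) at 133 to 178, and Itga5 (NM_010577, chr15:103350574-103366748, where the listed span covers 72.0% of the annotated gene) at 62.7 to 165. Itgb1 (NM_010578) at 40.5 to 53.2 and Itgav (NM_008402, chr2:83724397-83806917) at 20.2 to 54.0 exchanged places, since Itgav was the higher of the pair in RM1 and RM2 and the lower in the other 4 libraries. Itgal, Itgb5 and Itga4 followed at 13.4 to 20.6, 13.0 to 17.0 and 8.07 to 17.5, and these ranges overlap. In M0, Itgal at 20.6 lay above Itgav at 20.2. Itgax and Itgb3 lay far below, at 0.0445 to 0.311 and 0.0468 to 0.174, with at most 25 counts in any library. The other 8 genes had at least 660 counts in each library.

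**Figure D1:**
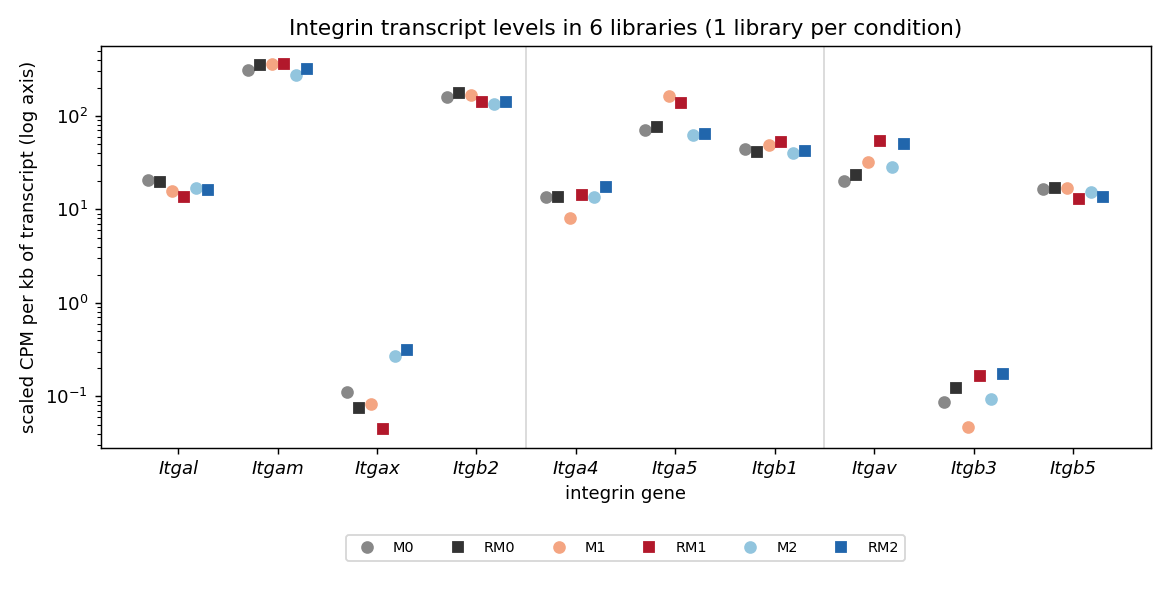
Level of each integrin gene in each library, in TMM-scaled CPM per kb of transcript on a log axis. Circles are non-irradiated and squares irradiated libraries, 1 library per condition, and the vertical lines divide genes of the beta 2, beta 1 and alpha v receptors. Itgam is highest in all 6 libraries, while Itgax and Itgb3 stay at or below 0.311.

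The 250 bases before the start site of 3 alpha chain genes are shown because these genes mark the extremes of the data: Itgam was the most abundant, Itgax had the widest range and was higher in both M2-polarized libraries, and Itgav was itself highest in RM1 and RM2. Sequences are from RefSeq on GRCm38.p6, plus strand, 5′ to 3′, and promoters were found for 7 of the 10 genes. Capitals mark motif matches on either strand, searched by letters only. They are the PU.1 core GAGGAA or its reverse complement (held by 23.3% of 32851 promoters), the AP-1 site TGANTCA (6.75%), the STAT6-type N4 GAS element, TTC and GAA around 4 bases (5.85%), and the GC box GGGCGG (32.7%).
Itgam (chr7:128062390-128062639): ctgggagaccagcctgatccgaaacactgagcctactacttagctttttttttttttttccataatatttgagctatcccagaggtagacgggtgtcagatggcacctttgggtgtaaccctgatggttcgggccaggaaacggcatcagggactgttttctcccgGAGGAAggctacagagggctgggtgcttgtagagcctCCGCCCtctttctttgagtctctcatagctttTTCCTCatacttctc
Itgax (chr7:128129300-128129549): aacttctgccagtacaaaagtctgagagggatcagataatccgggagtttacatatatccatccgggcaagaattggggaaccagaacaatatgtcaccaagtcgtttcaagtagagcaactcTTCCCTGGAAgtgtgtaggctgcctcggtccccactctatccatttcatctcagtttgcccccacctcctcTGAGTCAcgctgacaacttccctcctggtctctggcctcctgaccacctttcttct
Itgav (chr2:83724147-83724396): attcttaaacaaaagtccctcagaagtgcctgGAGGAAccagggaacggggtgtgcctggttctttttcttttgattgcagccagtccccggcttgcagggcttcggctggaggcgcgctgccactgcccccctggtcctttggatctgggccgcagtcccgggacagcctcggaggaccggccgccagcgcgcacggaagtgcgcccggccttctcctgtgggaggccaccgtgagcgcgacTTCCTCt
In Itgam the letters of the PU.1 core, the element bound by the myeloid transcription factor PU.1, occur with first bases at -84 and -15 and those of the GC box at -47. In Itgax an N4 element of the type STAT6 binds starts at -127 and an AP-1 site at -56. Itgav holds the PU.1 core at -218 and -7. A match of letters is not evidence of binding.

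Irradiation was compared within each state. In the alpha v group, Itgav, the chain common to the vitronectin and osteopontin receptors, was counted 2822 times for M0 cells and 3228 for RM0, 3374 for M1 and 6346 for RM1, 4083 for M2 and 6964 for RM2. The irradiated library was the higher in all 3 states. The log2 fold change was 0.21 in M0 (95% counting interval 0.14 to 0.28), 0.74 in M1 (0.68 to 0.80) and 0.80 in M2 (0.75 to 0.86), that is 1.16-, 1.67- and 1.74-fold. Counting intervals are exact Clopper-Pearson intervals and cover counting error only.

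A call of 2-fold needed at least 10 counts in 1 of the 2 libraries. It was reached by 0 of 9 integrin genes tested in RM0 against M0, where 1.54% of all genes reached it in either direction, by 1 of 9 in RM1 against M1, where 5.34% did, and by 0 of 10 in RM2 against M2, where 1.97% did. The 1 gene was Itgb3, a partner of alpha v in osteoclasts. M1 gave 4 and RM1 gave 16 counts of it, a 2.82-fold difference with an interval of 0.19 to 3.87 on the log2 scale. Itgb3 reached the 10 counts in this pair only in RM1, where it is high, and with a minimum of 50 counts there was no call. M0 and RM0 gave 10 and 14 counts, and M2 and RM2 gave 11 and 20, so at these counts a change was not resolved in the other pairs. At 1.5-fold, Itgav, Itga4 and Itgb3 passed in RM1 against M1 (10.3% of all genes passed upwards) and Itgav and Itgb3 in RM2 against M2 (3.34%).

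A shared effect of irradiation was then tested with edgeR's quasi-likelihood test in the 6-library fit, where the 3 states stand in for replicates and the same effect is assumed in each. Of all genes tested, 0.475% passed an adjusted p of 0.05 in either direction. None of the 9 integrin genes tested passed. Itgav came nearest, at a log2 fold change of 0.59 (SE 0.13) with an adjusted p of 0.077 from edgeR's test. At an unadjusted p under 0.05 there were 3 of 9, namely Itgav, Itga4 (0.39) and Itgb3 (0.98), where 14.7% of all genes lay. DESeq2 called 1 of 9, Itgav, at an adjusted p of 0.0082, where it called 1.01% of all genes. Over the alternatives the adjusted p of Itgav ranged from 1.5e-05, with the M1 state left out, to 1, with no term for polarization, and the call therefore depends on the model. Without the M0 state the log2 fold change was 0.77 and the adjusted p 0.017. Without the M2 state they were 0.48 and 0.48.

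Itga4, the alpha chain of VLA-4, showed the most uneven response among the abundant genes. Its counts were 2656 for M0 and 2614 for RM0, 1165 for M1 and 2322 for RM1, 2685 for M2 and 3397 for RM2. M1 was the lowest of the 6 libraries and the other 5 lay between 2322 and 3397. The log2 fold changes with irradiation were -0.0054 in M0 (interval -0.084 to 0.073), 0.82 in M1 (0.72 to 0.92) and 0.37 in M2 (0.30 to 0.44). An extra irradiation term for M1, added after the data had been seen, was 0.64 for Itga4 (SE 0.17) with an adjusted p of 0.0055 from edgeR's quasi-likelihood test. It was called for 8.67% of all genes and for 1 of the 9 integrin genes, on 1 residual degree of freedom, and it rests on 1 library of M1 and 1 of RM1. A term shared by M1 and M2 instead was 0.60 for Itga4 with an adjusted p of 0.93. Itga4 has the lowest GC content of the 10 genes, 41.1%. With the trend over GC content removed from each pair, its log2 fold change was 0.53 in M1 and 0.20 in M2, and that of Itgav was 0.53 and 0.68. The part of GC content in these values was not tested further.

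The beta 2 receptors moved little. Itgam, the chain of complement receptor 3, was counted 28276 times for M0 cells and 31782 for RM0, 24525 for M1 and 27725 for RM1, 25991 for M2 and 29244 for RM2. After scaling this was a log2 fold change of 0.19, 0.0036 and 0.20. Itgb2, the common beta chain, had log2 fold changes of 0.17 in M0, -0.26 in M1 and 0.090 in M2, from 9288 and 10331, 7340 and 6907, and 8042 and 8371 counts. Itgal lay at -0.066, -0.21 and -0.078 for M0, M1 and M2, and of its 3 intervals only that in M1, -0.33 to -0.095, left out 0. The counts of Itgax were 9 and 6, 5 and 3, and 22 and 25 for the 3 states without and with irradiation, and each interval included 0.

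Among the remaining chains, Itga5 had log2 fold changes of 0.11, -0.25 and 0.017 with irradiation in M0, M1 and M2, and Itgb1 had -0.11, 0.14 and 0.042. Itgb5, a further partner of alpha v, lay at 0.053, -0.38 and -0.17, from 992 and 1017, 764 and 660, and 955 and 832 counts. So in M1 and M2 the values of Itgav and Itgb5 had opposite signs. With the trend over GC content removed they were 0.53 and -0.17 in M1, and 0.68 and -0.057 in M2. Per length, the ratio of Itgav to Itgb5 was 1.23 for M0 and 1.38 for RM0, 1.91 for M1 and 4.17 for RM1, 1.85 for M2 and 3.63 for RM2.

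**Figure D2:**
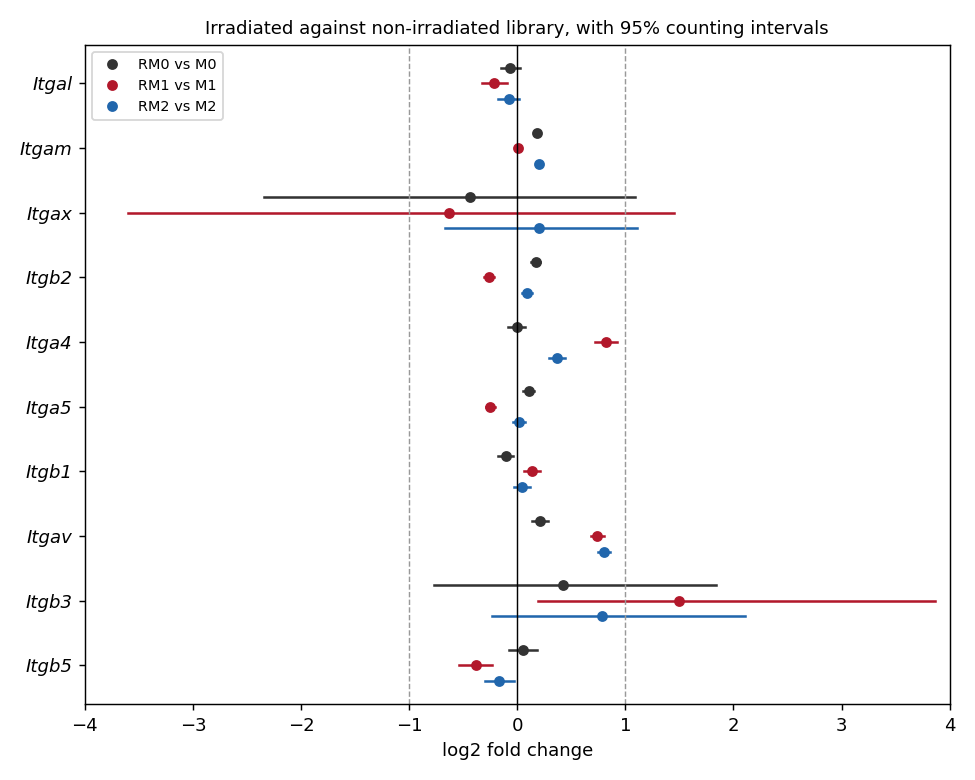
Log2 fold change of each integrin gene with irradiation in each state, with 95% counting intervals as bars. Dashed lines mark 2-fold. Itgav lies above 0 in all 3 states, Itga4 at -0.0054, 0.82 and 0.37 in M0, M1 and M2, and the bars of Itgax and Itgb3 are wide because they have at most 25 counts.

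M1 polarization was compared in the non-irradiated libraries (M1 against M0) and in the irradiated ones (RM1 against RM0), which share no library. Itga5, the fibronectin receptor chain, was counted 6094 times for M0 and 10670 for M1, 6483 for RM0 and 10127 for RM1. Both M1 libraries lay above the other 4 libraries, of which RM0 was the highest. The fold was 2.35 without and 1.84 with irradiation (log2 1.23, interval 1.19 to 1.28, and 0.88, interval 0.83 to 0.92). At 2-fold, Itga5 was the only integrin gene of 9 called in M1 against M0, where 22.7% of all genes were called, and Itgav was the only one of 9 in RM1 against RM0, where 14% were. Both calls need a scaling between libraries. With library totals alone Itga5 stood at 0.79 and Itgav at 0.96 in these pairs, under the threshold. Itga4 (-1.21) and Itgb3 (-1.01) then passed as lower in M1 against M0 in their place. With the trend over GC content removed, Itga5 was at log2 1.12 without and 1.03 with irradiation, and so passed in both pairs. Itgav was then at 1.04 in RM1 against RM0 and still passed.

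In the 6-library fit, 3 of 9 integrin genes passed for M1, where 47.6% of all genes did. Here the non-irradiated and the irradiated pair stand in for replicates, and the same effect is assumed in both. Itga5 rose by a log2 fold change of 1.06 (SE 0.14, adjusted p 0.00016 by edgeR's quasi-likelihood test), Itgav rose by 0.94 (SE 0.16, adjusted p 0.00071), and Itgal, the alpha chain of LFA-1, fell by 0.48 (SE 0.12, adjusted p 0.0074). The counts of Itgal were 2134 for M0 and 1202 for M1, 2014 for RM0 and 1170 for RM1, so both M1 libraries were the lowest of the 6. After scaling they were still the lowest, at 81.3 CPM for M1 and 70.2 for RM1, but RM2 was close to M1 at 84.2. Itgav differed more in the irradiated pair, with log2 fold changes of 0.68 (interval 0.61 to 0.75) in M1 against M0 and 1.21 (1.15 to 1.27) in RM1 against RM0.

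Itga4 was 1.70-fold lower in M1 than in M0 (log2 -0.76, interval -0.87 to -0.67) and at 0.062 (-0.019 to 0.14) in RM1 against RM0. Its M1 coefficient of -0.35 did not pass (adjusted p 0.12 by edgeR's quasi-likelihood test). With the trend over GC content removed, the values of Itga4 in these pairs were -0.62 and -0.15. Its M1 coefficient was then -0.38 and passed in the same test (adjusted p 0.031). Itgam, Itgb1, Itgb2 and Itgb5 had M1 coefficients between -0.17 and 0.25 and did not pass. All M1 values depend on the scaling. With library totals alone the median over all genes was -0.46 in M1 against M0 and -0.25 in RM1 against RM0, and 0.13 in RM1 against M1, while it was within 0.03 of 0 with TMM. With totals Itga5 and Itgav still rose, at 0.71 and 0.59, Itgam and Itgb1 turned negative, and Itga4, Itgb2 and Itgb5 also passed as lower.

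RAW264.7 cells can form osteoclasts, in which alpha v beta 3 is the main integrin, and markers of this and other cell types also moved with M1. Of the 9 macrophage markers, which summed to 303024 to 700404 counts, Emr1 (1.82) and Fcgr1 (2.63) rose and Csf1r (-1.07) and Lyz2 (-0.82), the most abundant, fell in the M1 fit. Of the dendritic cell markers, Ccr7 fell by 3.85 from 39 counts for M0 and had 1 for M1, and the most abundant, Zbtb46, had 15 to 31. Of the 7 osteoclast markers, which summed to 2389 to 4035 counts, Acp5 rose (1.00) and Ctsk (-0.87) and Dcstamp (-1.45) fell in the M1 fit, and Calcr was at 0 in every library. The neutrophil-associated S100a8 went from 4580 counts for M0 to 32464 for M1, while S100a9 had 1 to 19 and Cxcr2 had 0. The 5 neutrophil markers found summed to 2850 to 51248. The 6 fibroblast markers summed to 125 to 731, nearly all from Dcn, and Col1a2 and Col3a1 were at 0. The 5 megakaryocyte markers summed to 38 to 42, with Pf4 at 8 to 25, and the most abundant lymphocyte marker, Cd79a, had 1 to 4. The part of such cells in the integrin values was not tested. In bulk RNA, fewer cells of a type and less RNA per cell cannot be told apart.

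M2 polarization was compared in the same way, M2 against M0 and RM2 against RM0. Itgax, which encodes alpha X (CD11c), was counted 9 times for M0 and 22 for M2, 6 for RM0 and 25 for RM2. Both M2 libraries lay above the other 4, which had 3 to 9 counts. The log2 fold changes were 1.09 (interval 0.081 to 2.56) and 1.72 (0.72 to 3.62), and at these counts their size was poorly resolved. In both pairs Itgax reached 10 counts only in the M2 library, where it is high. It was below the count filter of the 6-library fit, and without that filter its M2 coefficient was 1.61 (adjusted p 0.40 by edgeR's quasi-likelihood test) and did not pass. Itgav had log2 fold changes of 0.50 (0.43 to 0.57) and 1.09 (1.03 to 1.15), from 2822 and 4083 and from 3228 and 6964 counts. With the trend over GC content removed the latter was 0.84, under 2-fold.

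At 2-fold, 1 of 10 integrin genes was called in M2 against M0 (Itgax), where 1.44% of all genes were, and 2 of 10 in RM2 against RM0 (Itgax and Itgav), where 2.61% were. With a minimum of 50 counts, 1 of these 3 calls was left, that of Itgav. In the 6-library fit 0 of 9 passed for M2 by edgeR's quasi-likelihood test, against 0.19% of all genes, with 2 of 9 at an unadjusted p under 0.05 (10.1% of all genes) and 1 of 9 by DESeq2 (0.354% of all genes). Itgav had an M2 coefficient of 0.79 (SE 0.15) with an adjusted p of 0.088 from edgeR and 0.0024 from DESeq2, and Itgal had one of -0.28 (adjusted p 0.47). Itgal was lower in both pairs, at -0.27 and -0.29, and so were Itgb2 at -0.24 and -0.32, Itga5 at -0.16 and -0.25 and Itgam at -0.15 and -0.14. None of these 4 intervals in either pair reached 0, and none of the 4 genes passed in the fit. With the trend over GC content removed Itga5 was at -0.077 and -0.0082.

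**Figure D3:**
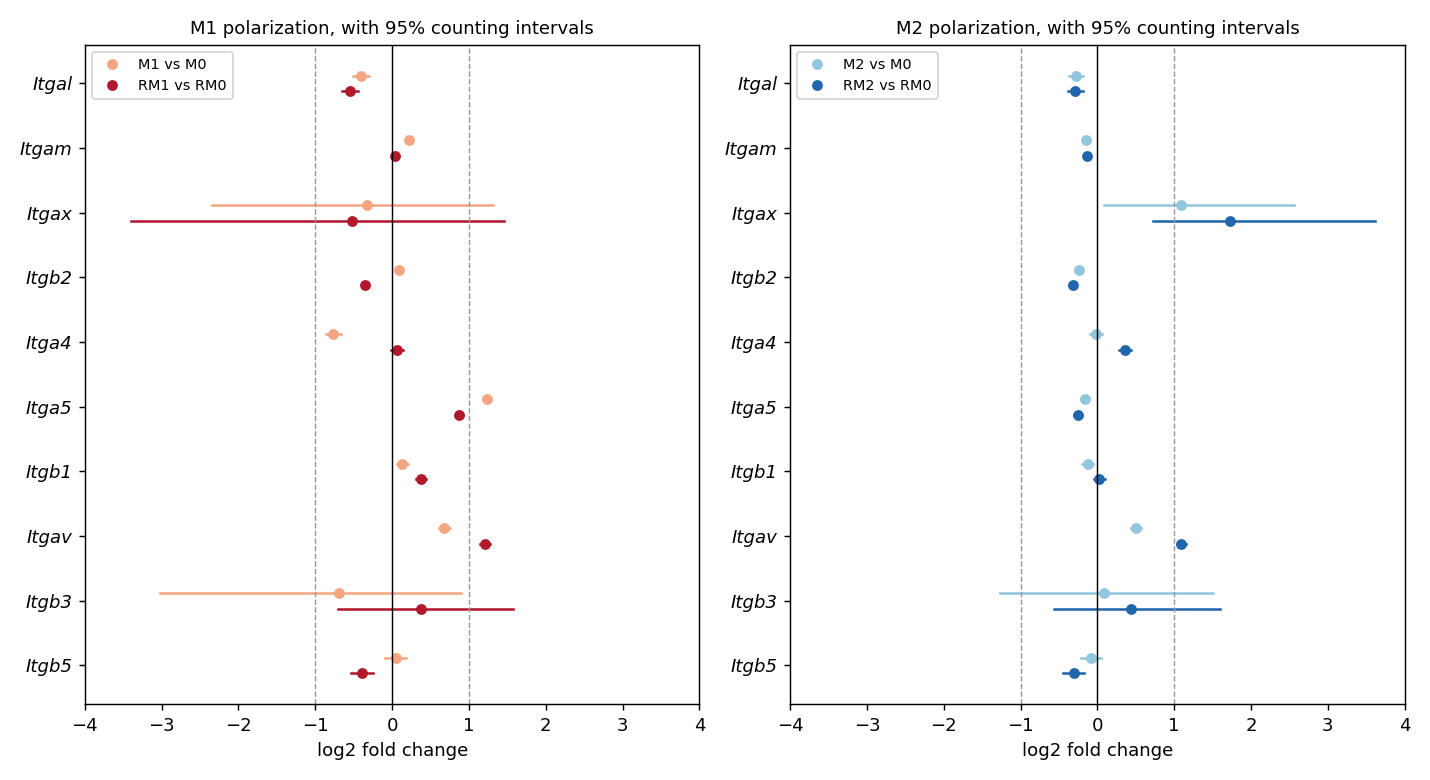
Log2 fold change of each integrin gene with M1 polarization (left) and M2 polarization (right), in the non-irradiated pair (light) and the irradiated pair (dark), with 95% counting intervals as bars and dashed lines at 2-fold. Itga5 is higher in both M1 pairs, at 1.23 and 0.88, Itgax in both M2 pairs, at 1.09 and 1.72, and Itgav in all 4.

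The ratio of 2 genes within a library does not depend on the scaling between libraries. It is not free of the trend over GC content, which was 57.5% for Itga5 and 41.1% for Itga4. Of the reads of Itgav and Itga4 together, Itgav made up 51.5% (interval 50.2 to 52.8) for M0 and 55.3% (54.0 to 56.5) for RM0, 74.3% (73.0 to 75.6) for M1 and 73.2% (72.3 to 74.1) for RM1, 60.3% (59.2 to 61.5) for M2 and 67.2% (66.3 to 68.1) for RM2. The share was thus higher in irradiated cells of M0 and M2, while the intervals overlapped in M1, where both genes were higher after irradiation. Of the reads of Itga5 and Itga4, the fibronectin receptor chains, Itga5 made up 69.6% for M0 and 71.3% for RM0, 90.2% for M1 and 81.3% for RM1, 67.5% for M2 and 61.9% for RM2. With the trend over GC content removed, the irradiation values of these 2 genes lay closer together. Itga5 and Itga4 were then at log2 0.057 and 0.064 in M0, -0.035 and 0.53 in M1, and 0.13 and 0.20 in M2. Of the reads of Itgav and Itgb1, Itgav made up 45.8% for M0 and 51.3% for RM0, 55.3% for M1 and 65.2% for RM1, 56.6% for M2 and 68.8% for RM2. It was above its non-irradiated counterpart in every state.

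**Figure D4:**
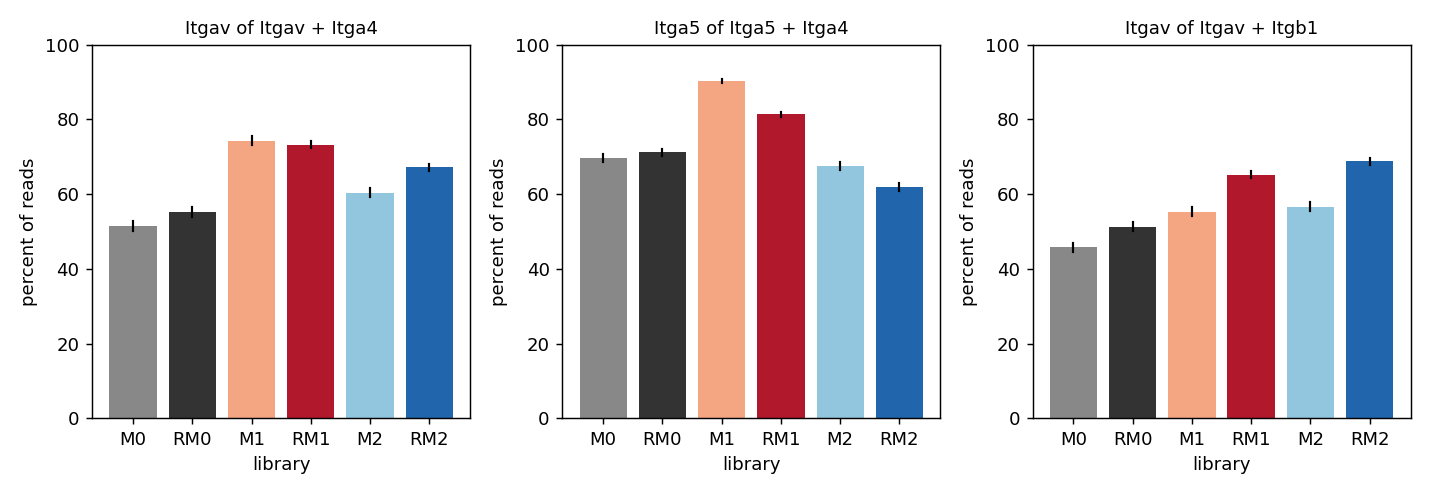
Share of Itgav in the reads of Itgav and Itga4, of Itga5 in those of Itga5 and Itga4, and of Itgav in those of Itgav and Itgb1, in percent, for each library. Black lines are exact 95% binomial intervals, which cover counting error only. The share of Itga5 against Itga4 was highest in M1, at 90.2%, and that of Itgav against Itgb1 was highest in RM2, at 68.8%.

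Among the alpha chains that pair with beta 2, Itgam supplied 93.0% of the reads for M0 and 94.0% for RM0, 95.3% for M1 and 95.9% for RM1, 93.4% for M2 and 94.5% for RM2. Itgal supplied nearly all of the rest. Per length, the sum of the alpha L, alpha M and alpha X transcripts was 2.08 times that of Itgb2 for both M0 and RM0, 2.23 for M1, 2.66 for RM1, 2.19 for M2 and 2.35 for RM2. For the alpha 4, alpha 5 and alpha v transcripts against Itgb1 the ratio was 2.35 for M0, 2.74 for RM0, 4.23 for M1, 3.89 for RM1, 2.59 for M2 and 3.14 for RM2. Both M1 libraries had the highest values, and alpha 4 and alpha v have other beta partners as well.

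One of these partners, Itgb7, which forms the alpha 4 beta 7 receptor, was more abundant than Itga4, counted 10452 times for M0 and 13519 for RM0, 13635 for M1 and 13754 for RM1, 9548 for M2 and 10170 for RM2. It was the most abundant of the 17 other integrin genes, and its M1 coefficient was 0.53 (adjusted p 0.016 by edgeR's quasi-likelihood test). In the same fit Itga6, a laminin receptor chain, had an M1 coefficient of -0.78, Itgb4 of -1.62, Itga10 of -1.84 and Itga7 of 0.44, and these 5 were the ones that passed of 6 tested, where 47.6% of all genes passed.

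Lists of integrin ligands, regulators and signalling proteins, 125 genes in 7 lists with the other subunits, of which 89 were tested, were described in the same fit. For irradiation, 2 of 89 rose and 0 fell, where 0.475% of all genes passed. An unadjusted p under 0.05 was reached by 17 of 89, where 14.7% of all genes reached it, and DESeq2 called 3, all higher, where it called 1.01% of all genes. Both genes that rose in edgeR's test encode ligands of alpha v. Thbs1, for thrombospondin 1, was counted 104 times for M0 and 243 for RM0, 25 for M1 and 202 for RM1, 57 for M2 and 125 for RM2, and rose by 1.65 on the log2 scale (adjusted p 0.027). Edil3, for the RGD protein DEL-1, had 1112 and 1520, 1228 and 2295, and 1283 and 2080 counts, and rose by 0.64 (adjusted p 0.024 by edgeR). Edil3 lay outside the rule for named genes and was chosen after its values were seen. Spp1, for osteopontin, a further alpha v ligand and the most abundant gene of the matrix list, had 469148 to 652243 counts and a coefficient of 0.044. Fn1 and Vtn, the genes of fibronectin and vitronectin, were at 0 counts in every library, and Vcam1 at 0 or 1. The median over the 10 matrix ligands tested was 0.091, against -0.014 over all genes.

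For M1, 23 of the 89 rose and 23 fell, where 23.3% of all genes rose and 24.3% fell. Of the 10 matrix ligands 4 rose and 0 fell, with the extracellular matrix protein gene Tnc at 3.32 and the laminin chain gene Lamc1 at 1.01, and the other 2 were Adam9 (0.74) and Edil3 (0.70). Of the 8 leukocyte ligands tested Icam5 (1.38) and Jam2 (0.54) rose and Icam2, a ligand of LFA-1, fell by 3.13. Plaur, for the urokinase receptor, was the most abundant of this list with 3530 to 5374 counts and an M1 coefficient of -0.15. Of the 19 activators 5 rose and 5 fell. Cd47, which associates with alpha v beta 3 and is bound by thrombospondin, rose by 1.68. Tln2 (-1.74), for a talin, and Rasgrp4 (-1.62) and Rassf5 (-1.04), for proteins of Ras-family GTPase signalling, fell. Tln1, the most abundant activator, had 16316 to 26479 counts and an M1 coefficient of -0.21.

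Of the 14 inhibitors 4 rose and 4 fell in M1, among them Itgb1bp1 (ICAP1, which binds the beta 1 tail) at 0.92 and Spn (the sialomucin CD43) at -2.30, Rap1gap at -1.40 and Cd300a at -1.23. Of the 17 genes of the adhesion complex 4 rose and 6 fell, and the members with the largest changes were Pip5k1c (-1.40), Nedd9 (-1.05), Csk (-0.92) and Parvg (-0.84). Of the 15 kinases and adaptors below integrins 2 rose and 4 fell, with Fcer1g at 0.86, Fgr at -0.80, Btk at -0.57 and Pik3cg at -0.55. The most abundant genes of these 3 lists, Flna, Pxn and Tyrobp, had M1 coefficients of 0.015, -0.11 and 0.12 and did not pass. For M2, 0 of the 89 passed by edgeR's test (0.19% of all genes), 18 had an unadjusted p under 0.05 (10.1% of all genes) and DESeq2 called 0 (0.354% of all genes).

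The genes whose scaled log2 level was most like that of Itgax over the 6 libraries, out of 8246 with a mean of at least 200 counts, were Mfsd7b, Odf2l, Lmo4, Eml4 and Trmt10c, with Pearson's r from 0.973 to 0.990. For Itgav, chosen after its values were seen, they were Dcaf10, Mdm4, Tmem26, Rab8b and Itch, with r from 0.985 to 0.996. These are descriptions over 6 libraries that share their states and scaling, and the r of Itgax rests on 3 to 25 counts.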

How the data were processed

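RNA of RAW264.7 macrophages was sequenced in 6 conditions, with 1 library per condition. The submitters' processing notes name Trimmomatic 0.36, HISAT2 2.2.1 and HTSeq 0.11.3 and the build mm10, and the authors deposited raw counts per RefSeq gene. Total counts of 17894937 to 18870516 per library set the counting error, and no spread between replicates could be measured.

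Counts were scaled with TMM in edgeR 4.0.16 (R 4.3.3). Log2 fold changes between 2 libraries used a prior count of 2 and carry no p-value. The 6-library fit had terms for polarization and irradiation, took genes that reached 10 counts in 3 or more libraries, and had 2 residual degrees of freedom. Its p-values were adjusted by Benjamini-Hochberg over the 11574 genes. DESeq2 1.42.0 and other scalings, filters and thresholds were alternatives.

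Transcript lengths came from GENCODE M21. The integrin genes and all lists were chosen with earlier results of these data known. All 10 integrin genes were named, and genes of a list if they passed the fit, or 2-fold in the same direction in 2 pairs sharing no library, at most 4 a list by size, with the most abundant gene of each list. Other genes named were chosen after their values were seen. For the integrin gene with the widest range, the 5 genes most like it were named. Ly6g was not found, and 3 symbols were matched through synonyms. Marker lists covered macrophages, dendritic cells, osteoclasts, neutrophils, lymphocytes, fibroblasts and megakaryocytes.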

Additional observations from a re-analysis of the deposited data

Results flagged for a closer look

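A difference between states in the values with irradiation was marked for 4 integrin genes. For Itga4 an extra irradiation term for M1, which rests on 1 library of M1 and 1 of RM1 and was added after its values were seen, was 0.64 on the log2 scale (adjusted p 0.0055 by edgeR's quasi-likelihood test), while a term shared by M1 and M2 was 0.60 (adjusted p 0.93). For the other 3 the counting intervals of 2 libraries lay on opposite sides of 0 in different states. Itga5 was at 0.11 in RM0 against M0 and at -0.25 in RM1 against M1, and its extra irradiation term for M1 was -0.31 (adjusted p 0.23 by edgeR). Itgb1 was at -0.11 in RM0 against M0 and at 0.14 in RM1 against M1. With the trend over GC content removed these values were 0.057 and -0.035 for Itga5, and -0.064 and -0.036, of the same sign, for Itgb1. Itgb2 was at 0.17 and 0.090 in RM0 against M0 and RM2 against M2, and at -0.26 in RM1 against M1. The extra term for M1 did not pass for Itgb1 (log2 value 0.17, adjusted p 0.59 by edgeR) or Itgb2 (log2 value -0.39, adjusted p 0.11 by edgeR). Counting intervals leave out the variation between cultures, so such opposite signs are not shown to be differences between the states.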

How the results depend on the processing

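Each condition had 1 library, and the labels give no replicate numbers that pair libraries across conditions. Pairing was therefore by state only, since the polarization term of the fit compares irradiated with non-irradiated libraries within each state. A pair of libraries has only counting error. The fit takes the 3 states as replicates for irradiation, and the non-irradiated and irradiated pairs as replicates for M1 and M2. Over the 3 irradiation pairs 1 call was made at 2-fold, against 5 at 1.5-fold, 0 at 4-fold and 0 with at least 50 counts. Over the 2 M1 pairs 2 calls became 6 at 1.5-fold and 0 at 4-fold, and were 2 calls of other genes with library totals. With the GC trend removed they were 3. Over the 2 M2 pairs 3 calls became 0 at 4-fold and 1 with at least 50 counts. In the fit, irradiation had 0 calls, and 1 with DESeq2's test, with no filter on low counts, or with an extra term for M1. With a state left out it had 0 to 1. M2 had 0 calls, and 1 with DESeq2's test or no filter. M1 had 3 calls, 6 with library totals and 4 with the GC trend removed. Of 264 comparisons of single genes in a pair of libraries with an alternative, 194 were marked as the same and 70 as moved. Of those that moved, 36 were with the GC trend removed, 33 with library totals and 1 with DESeq2 size factors. Of 171 comparisons of single genes in the fit with an alternative, 147 kept direction and side of the threshold, 10 newly passed and 14 changed sign, none of them for a gene that had passed. For irradiation the sign changes were Itga5, Itgb1 and Itgb2 with a state left out (ranges -0.11 to 0.069, -0.026 to 0.092 and -0.083 to 0.14), Itga5 at 0.049 and Itgb1 at -0.052 with the GC trend removed, and Itgb2 at -0.0048 with DESeq2's test and -0.0032 with its size factors. For M1 they were Itgam at -0.22 and Itgb1 at -0.089 with library totals, and Itgb3 at 0.0030 with DESeq2 size factors and 0.019 with the GC trend removed. For M2 they were Itga4 at -0.062 with the GC trend removed and Itgb1 at 0.0042 with library totals. Apart from the filters and thresholds, the cause of these shifts was not tested. The GC correction and the extra terms were chosen after seeing the data.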
